A study of Homo sapiens with 4 samples.

Results

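The genes described here are 10 genes of fibroblast growth factor (FGF) signalling, with the chromatin peaks of SS18::SSX and WDR5 that were called at them. They are 6 ligand genes (*FGF3*, *FGF4*, *FGF8*, *FGF9*, *FGF18*, and *FGF19*) and 4 receptor genes (*FGFR1*, *FGFR2*, *FGFR3*, and *FGFR4*), out of 20033 protein-coding genes in the GENCODE 44 annotation. The 10 genes were chosen by name, with earlier results of these data known. Comparisons with all protein-coding genes are therefore descriptive and were not tested. A peak was assigned to a gene when it overlapped the gene body or the 20 kb on either side of it, and it was a promoter peak when its centre lay between 1000 bp upstream and 100 bp downstream of a transcription start site (TSS) of that gene. The 10 windows together held 23 peaks of SS18::SSX and 30 of WDR5 in control cells, and 4 and 9 in cells treated with MS67. All coordinates are hg38 and count from 1.

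FGF ligands are secreted proteins that bind receptor tyrosine kinases at the cell surface, with heparan sulphate or a Klotho protein as a cofactor. Bound receptors dimerize and signal through the adaptor FRS2 to the RAS-MAPK and PI3K-AKT pathways, and Sprouty and DUSP proteins dampen the signal. Many ligand genes are used in embryonic patterning and are silent in most adult tissues. SS18::SSX is the fusion oncoprotein of synovial sarcoma (SS), which enters SWI/SNF chromatin-remodelling complexes in place of their SS18 subunit, and WDR5 is a scaffold subunit of the KMT2/MLL histone methyltransferase complexes.

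The libraries were made by CUT&RUN, in which an antibody directs micrococcal nuclease to the chromatin around a bound protein and the released fragments are sequenced. HSSY II, a human SS cell line that carries SS18::SSX1, was treated for 4 days with DMSO as the vehicle control or with 2.5 μM MS67, a PROTAC that recruits the VHL ubiquitin ligase to degrade WDR5. There was 1 library for each of the 4 combinations of antibody and treatment, so differences between libraries have no replicates behind them and were not tested. Mouse NIH-3T3 cells were added to every library as a spike-in, and for SS18::SSX an anti-GFP antibody was added for the H2B-GFP of these cells. The spike-in-scaled signals were not analysed here, and peak lists hold no protein level by which the degradation of WDR5 could be checked.

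The lists held 15141 SS18::SSX peaks with DMSO and 1175 with MS67, and 35605 WDR5 peaks with DMSO and 14123 with MS67. Each peak has a fold enrichment, which is the fragment count at its summit over the background around it in that library, and a −log10 q, its adjusted significance in that library. Together with the deposited p-value these fix the number of fragments at the summit, and the lowest background of a list gives the genome-wide coverage of its library. Coverage was 0.541 fragments per bp for SS18::SSX with DMSO and 0.737 with MS67, a ratio of 1.36. For WDR5 it was 0.368 with DMSO and 0.168 with MS67, a ratio of 0.458. Mean fragment length was 136 and 197 bp in the SS18::SSX libraries and 159.8 and 154 bp in the WDR5 libraries. Coverage rises with both the number and the length of fragments. Peak numbers with DMSO and MS67 are therefore set side by side at unequal coverage, and the part of coverage in them was not separated from that of binding.

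A peak was called both with DMSO and with MS67 at 7 sites, and the shared stretch of 5 of them is printed because so few sites were called in both conditions. Each is read from hg38 on the minus strand, on which all 3 genes are transcribed, and capitals mark CG dinucleotides. The sites inside *FGFR1* and at the internal promoter of *FGFR2* are not printed. The SS18::SSX stretches lie at chr11:69820426-69820725 (the middle 300 bp of the 389 bp shared) upstream of *FGF3*, at chr11:69686594-69686775 beyond the 3′ end of *FGF19*, and at chr11:69706452-69706598 upstream of *FGF19*. The WDR5 stretches lie at chr10:121573639-121573801 in an *FGFR2* intron and at chr10:121608866-121609061 upstream of *FGFR2*.
FGF3 upstream: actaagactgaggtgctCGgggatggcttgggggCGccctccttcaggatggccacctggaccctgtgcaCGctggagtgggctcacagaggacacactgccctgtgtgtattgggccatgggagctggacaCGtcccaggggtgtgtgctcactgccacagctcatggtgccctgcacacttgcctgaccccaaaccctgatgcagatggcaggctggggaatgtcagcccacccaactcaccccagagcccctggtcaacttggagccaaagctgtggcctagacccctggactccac
FGF19 downstream: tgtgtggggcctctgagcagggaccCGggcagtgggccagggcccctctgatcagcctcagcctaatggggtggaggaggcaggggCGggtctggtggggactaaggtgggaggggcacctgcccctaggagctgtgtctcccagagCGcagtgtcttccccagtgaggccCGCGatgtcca
FGF19 upstream: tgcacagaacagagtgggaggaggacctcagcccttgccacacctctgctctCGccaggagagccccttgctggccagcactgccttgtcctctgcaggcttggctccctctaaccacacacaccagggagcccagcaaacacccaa
FGFR2 intron: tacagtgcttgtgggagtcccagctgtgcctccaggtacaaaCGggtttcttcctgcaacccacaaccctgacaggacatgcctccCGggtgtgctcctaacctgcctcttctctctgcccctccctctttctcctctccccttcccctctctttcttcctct
FGFR2 upstream: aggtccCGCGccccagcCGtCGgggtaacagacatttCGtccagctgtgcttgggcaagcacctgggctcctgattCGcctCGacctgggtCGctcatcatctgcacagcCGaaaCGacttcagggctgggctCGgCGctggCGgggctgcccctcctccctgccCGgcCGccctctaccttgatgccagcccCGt
The 3 SS18::SSX stretches held 4, 5, and 1 CG dinucleotides at a GC content of 62.7, 68.1, and 61.9%. The *FGFR2* intron stretch held 2 at 57.7% GC, and the stretch upstream of *FGFR2* held 16 at 67.9% GC.

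Another 3 stretches are shown because they set the 2 proteins beside each other at *FGF4* and *FGF3*. The first, chr11:69775870-69776043, is the part of the *FGF4* upstream region that an SS18::SSX peak and a WDR5 peak shared with DMSO. The second, chr11:69774254-69774553, is the 300 bp around the summit of the SS18::SSX peak in the *FGF4* intron, which had the highest −log10 q of the 23. The third, chr11:69819642-69819927, is the WDR5 promoter peak of *FGF3*, and all 3 are printed on the minus strand.
FGF4 shared: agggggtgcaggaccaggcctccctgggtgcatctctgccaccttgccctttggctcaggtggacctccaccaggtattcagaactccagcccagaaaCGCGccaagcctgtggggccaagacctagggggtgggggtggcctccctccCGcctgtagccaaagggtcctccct
FGF4 intron: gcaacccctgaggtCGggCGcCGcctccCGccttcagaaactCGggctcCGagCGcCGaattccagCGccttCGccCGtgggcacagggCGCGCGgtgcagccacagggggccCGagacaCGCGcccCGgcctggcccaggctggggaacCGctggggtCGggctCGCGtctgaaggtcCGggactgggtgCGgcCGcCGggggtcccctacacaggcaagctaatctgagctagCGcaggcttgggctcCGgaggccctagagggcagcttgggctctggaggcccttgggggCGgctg
FGF3 promoter: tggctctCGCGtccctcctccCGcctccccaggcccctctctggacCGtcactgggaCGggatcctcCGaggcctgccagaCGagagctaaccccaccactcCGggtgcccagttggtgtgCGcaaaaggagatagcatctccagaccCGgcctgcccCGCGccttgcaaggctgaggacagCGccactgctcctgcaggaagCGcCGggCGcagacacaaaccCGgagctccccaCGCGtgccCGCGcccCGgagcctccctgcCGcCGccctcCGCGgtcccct
The shared stretch held 3 CG dinucleotides in 174 bp, whereas the *FGF4* intron held 29 in 300 bp and the *FGF3* promoter peak held 26 in 286 bp.

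SS18::SSX with DMSO had a peak at 8 of the 10 genes, 5 ligands and 3 receptors, and none at *FGF9* or *FGFR4*. Over all protein-coding genes, 37.1% had such a peak. The 23 peaks amounted to 3.23 per 100 kb of window, against 0.701 per 100 kb over the windows of all protein-coding genes, and they covered 1.28% of the window length against 0.212%. *FGFR3* had 6 peaks, a number that 3.33% of all genes reached, *FGF19* had 5, which 4.46% reached, and *FGF4* and *FGFR2* had 3 each, which 9.83% reached. *FGF8* and *FGF18* had 2 peaks each, which 17.6% reached, and *FGF3* and *FGFR1* had 1 each. These shares, and those given below for other lists, are not adjusted for window length, which ran from 44.3 kb at *FGF4* to 160.1 kb at *FGFR2*. *FGF3*, *FGF4*, and *FGF19* are neighbours on chromosome 11, 34626 bp and 66999 bp apart, so they are not independent of each other. The windows of *FGF3* and *FGF4* share 5374 bp, and no peak lay in both.

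**Figure D1:**
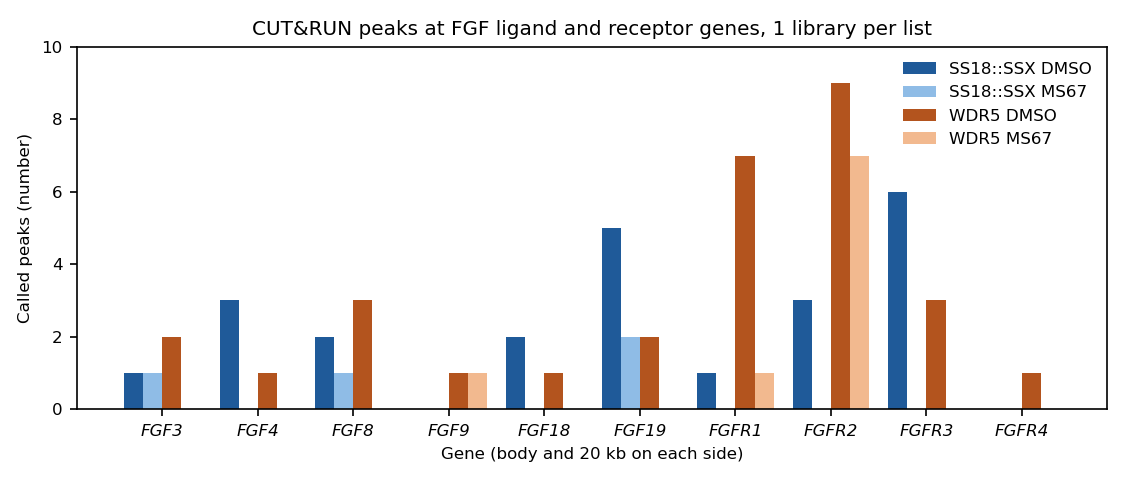
Number of called CUT&RUN peaks (y axis) in the gene body and the 20 kb on each side of the 10 FGF genes (x axis), with 1 bar for each of the 4 libraries and no error bars because each condition is 1 library. SS18::SSX with DMSO reaches 6 peaks at FGFR3 and 5 at FGF19, WDR5 with DMSO reaches 9 at FGFR2, and WDR5 with MS67 has 7 at FGFR2, of which 3 overlap a DMSO peak.

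SS18::SSX promoter peaks were fewer, at 3 of the 10 genes (*FGF4*, *FGFR1*, and *FGFR3*), where 13.4% of all protein-coding genes had one. Of the 23 peak centres, 16 were intergenic, 6 intronic, and 1 in an untranslated region. The fold enrichment of the 23 ranged from 2.57 to 5.33 with a median of 3.58, below the median of 3.99 of the whole list, and their −log10 q had a median of 3.39 against 3.68. With a −log10 q and a fold both above 3, 10 of the 23 were left.

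WDR5 with DMSO had a peak at all 10 genes, and 79.2% of all protein-coding genes had one. The 30 peaks amounted to 4.22 per 100 kb, against 1.78 over all genes. *FGFR2* had 9, a number that 2.53% of all genes reached, and *FGFR1* had 7, which 6.46% reached. *FGF8* and *FGFR3* had 3 each, which 41.9% reached. *FGF3* and *FGF19* had 2 each, which 60.5% reached, and *FGF4*, *FGF9*, *FGF18*, and *FGFR4* had 1 each, which 79.2% reached. Promoter peaks of WDR5 stood at 7 of the 10 genes, all except *FGF9*, *FGF19*, and *FGFR3*, where the share of all genes was 43.0%. Their fold enrichment ranged from 2.69 to 6.62 with a median of 4.15, against 4.61 for the list, and their −log10 q had a median of 3.60, against 4.37. With a −log10 q above 3 and a fold above 6, only the intron peak of *FGFR2* at chr10:121573591-121574030 was left of the 30.

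**Figure D2:**
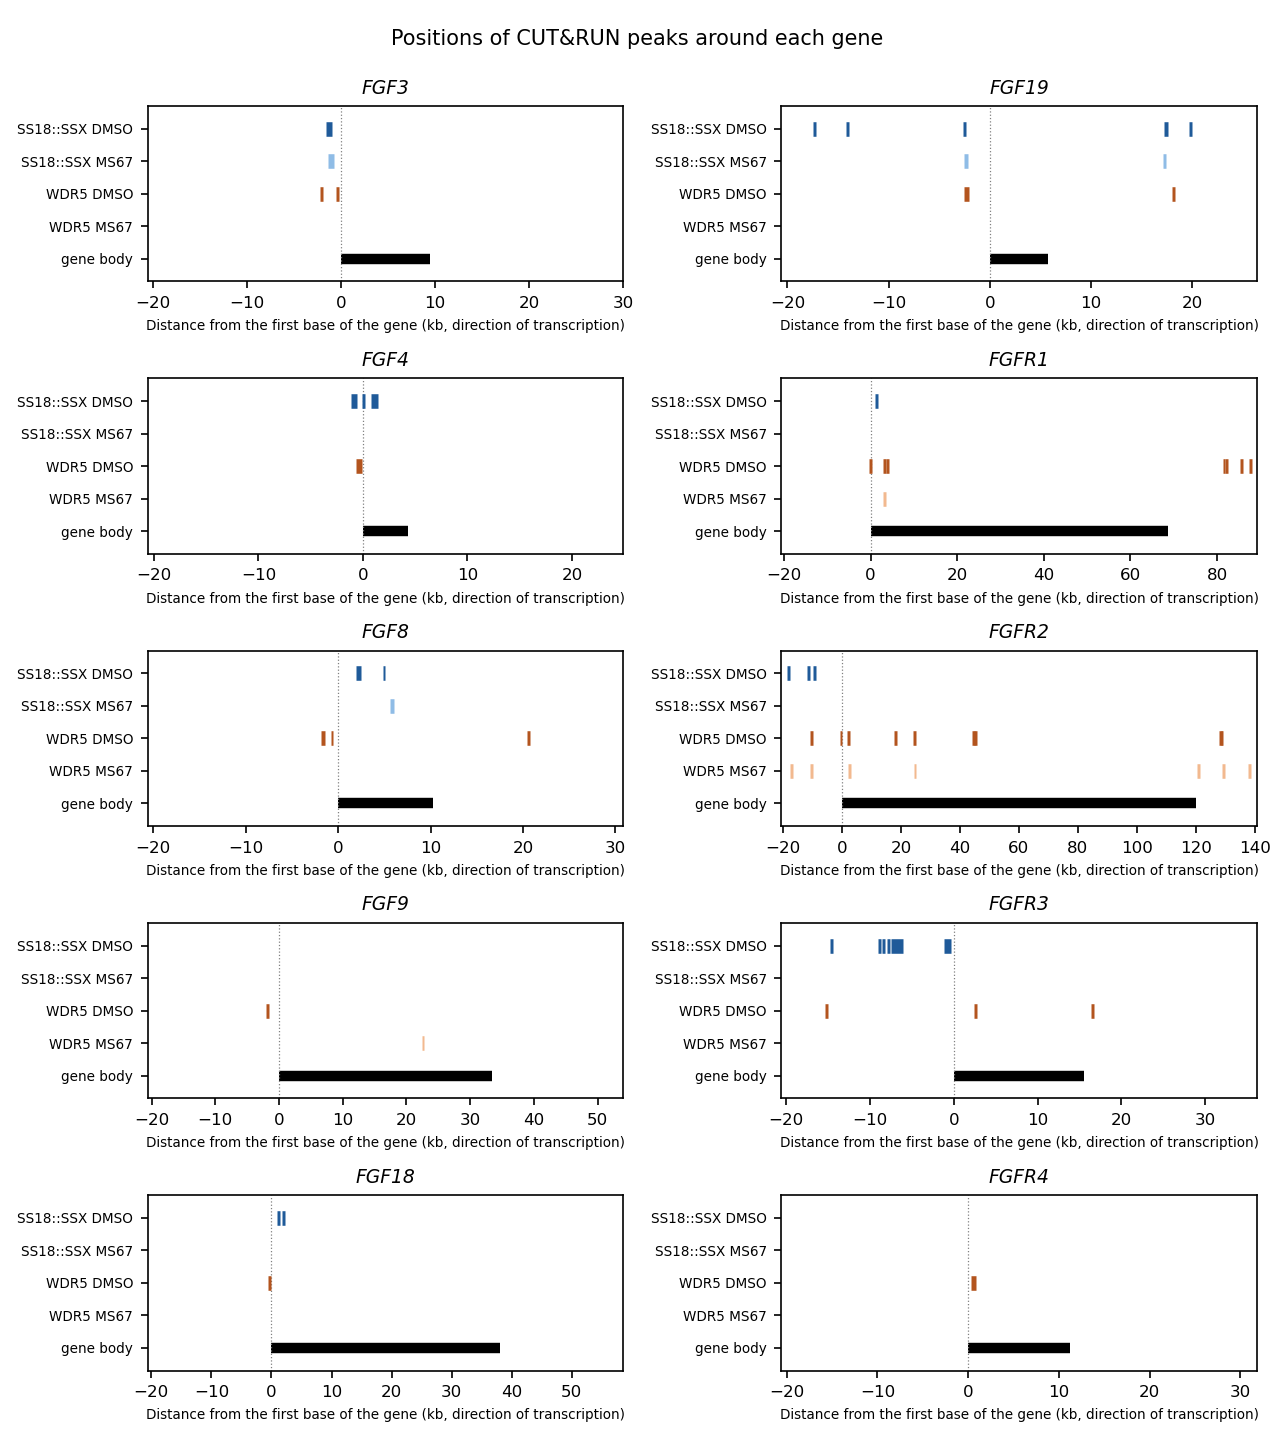
Position of every called peak (coloured bars) relative to the first base of each gene (x axis, kb, in the direction of transcription), with 1 row for each library and the gene body in black. Narrow peaks are widened to stay visible. SS18::SSX peaks with DMSO cluster around the start of FGF4 and upstream of FGFR3, and MS67 peaks of WDR5 stand mainly at FGFR2.

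*FGF3* (ENSG00000186895, chr11:69809968-69819416, minus strand), a ligand known for its part in inner ear and tooth development, had 1 SS18::SSX peak with DMSO, at chr11:69820382-69820996. Its centre lay 1273 bp upstream of the gene, its summit held 20 fragments (exact 95% Poisson interval 12.2 to 30.9, counting error only, as for all intervals here), and its fold was 3.58. The 2 WDR5 peaks with DMSO lay on either side of it, at chr11:69819642-69819927 over the promoter with a fold of 3.38, and at chr11:69821397-69821557 with a fold of 2.77. The gaps between the SS18::SSX peak and these WDR5 peaks were 454 and 400 bp.

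*FGF4* (ENSG00000075388, chr11:69771022-69775341, minus strand), a ligand of the early embryo and limb bud, had 3 SS18::SSX peaks and 1 WDR5 peak around its start. The strongest SS18::SSX peak, at chr11:69773861-69774556 in the intron, had a fold of 4.97, a −log10 q of 7.44, and 24 fragments at the summit. The other 2 were promoter peaks. One, at chr11:69775209-69775389, had its centre 42 bp inside the gene and a fold of 3.17, and the other, at chr11:69775870-69776503, had its centre 846 bp upstream and a fold of 3.54. The WDR5 peak, at chr11:69775390-69776043, had a fold of 5.005 and 19 fragments at the summit. It began at the base after the end of the first promoter peak and overlapped the second over the 174 bp printed above.

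*FGF8* (ENSG00000107831, chr10:101770109-101780371, minus strand), a ligand of midbrain, limb, and heart patterning, had 2 SS18::SSX peaks in its introns with DMSO, 2225 and 4974 bp downstream of the first base. Their summits held 37 and 38 fragments, the highest counts of the 23, but their folds were 2.99 and 2.84, over local backgrounds of 21.7 and 23.5 times the genome-wide coverage. WDR5 had a promoter peak at chr10:101780924-101781160 with a fold of 2.69 and 28 fragments, and a peak at chr10:101781738-101782244 with a fold of 2.69 and 26 fragments whose nearest TSS was that of *NPM3*. A more distant WDR5 peak lay 20595 bp downstream of the first base with a fold of 4.21. No SS18::SSX peak at *FGF8* came within 1 kb of a WDR5 peak, and the smallest gap was 2516 bp.

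*FGF18* (ENSG00000156427, chr5:171419647-171457626, plus strand), a ligand of the same subfamily as *FGF8* that acts in cartilage and bone growth, had 2 SS18::SSX peaks in its first kilobases. They lay 1231 and 1942 bp downstream of the first base, with folds of 5.33 and 4.09 and 12 and 9 fragments. A fold of 5.33 was the highest of the 23 peaks. The single WDR5 peak, over the promoter at chr5:171419238-171419475, had a fold of 3.87 and 9 fragments.

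*FGF19* (ENSG00000162344, chr11:69698238-69704022, minus strand), an endocrine ligand that represses bile acid synthesis in the liver, had 5 SS18::SSX peaks, none at its promoter. The nearest lay 2510 bp upstream with a fold of 3.86 and 19 fragments, and WDR5 had a peak over it with a fold of 3.72 and 22 fragments. Another 2 lay 14030 and 17295 bp upstream with folds of 3.59 and 3.93. The last 2 lay 17414 and 19836 bp downstream of the first base, where the nearest TSS was that of *LTO1*, with folds of 4.96 and 4.43. A WDR5 peak with a fold of 5.91 and 12 fragments lay 454 bp from the first of these.

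*FGF9* (ENSG00000102678, chr13:21671073-21704498, plus strand), a ligand of gonad and lung development, had no SS18::SSX peak in either condition. Its only WDR5 peak with DMSO lay 1761 bp upstream, with a fold of 2.89 and 13 fragments, and the nearest TSS was that of ENSG00000289860.

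*FGFR1* (ENSG00000077782, chr8:38400215-38468834, minus strand), the receptor of mesenchymal tissues, had 1 SS18::SSX peak with DMSO. It lay in an intron 1458 bp from the first base and at the promoter of another of the 47 annotated TSSs of the gene, with a fold of 3.98 and 9 fragments. Of the 7 WDR5 peaks, 3 stood near the start of the gene. They lay 2, 3158, and 3828 bp downstream of the first base, with 26, 23, and 26 fragments, folds of 4.92, 4.63, and 5.14, and −log10 q of 8.44, 7.02, and 8.90. The other 4 lay 81588 to 87795 bp downstream of the first base, beyond the 3′ end, and the TSSs nearest to them were those of *NSD3*, ENSG00000272092, and *LETM2*.

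*FGFR2* (ENSG00000066468, chr10:121478332-121598458, minus strand), whose splice forms serve epithelia and mesenchyme, had the most WDR5 peaks. Promoter peaks lay at chr10:121595885-121596550 over an internal TSS with a fold of 4.31 and 30 fragments, and at chr10:121598684-121598927, centred 348 bp upstream of the first base, with a fold of 2.92 and 19 fragments. The intron peak at chr10:121573591-121574030 had a fold of 6.62 and a −log10 q of 9.48, both the highest of the 30. The 3 SS18::SSX peaks lay 9391, 11419, and 18183 bp upstream of the gene, with folds of 2.85, 3.05, and 3.87. The first 2 stood on either side of a WDR5 peak at chr10:121608580-121609178, with gaps of 645 and 368 bp.

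*FGFR3* (ENSG00000068078, chr4:1793293-1808872, plus strand), the receptor that restrains bone growth, had the most SS18::SSX peaks. Of the 6, 4 formed a group between 6810 and 8888 bp upstream, with 34, 26, 23, and 27 fragments, and the widest of them, chr4:1785725-1787240, spanned 1516 bp with a fold of 3.77 and a −log10 q of 7.14. A promoter peak 782 bp upstream of the first base had a fold of 3.35 and 21 fragments, and a sixth peak lay 14642 bp upstream. The 3 WDR5 peaks lay elsewhere, 15195 bp upstream and 2618 and 16575 bp downstream, and 1 of them came within 284 bp of an SS18::SSX peak.

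*FGFR4* (ENSG00000160867, chr5:177086905-177098144, plus strand), the receptor through which *FGF19* acts in the liver, had no SS18::SSX peak and 1 WDR5 promoter peak with DMSO, at chr5:177087168-177087785. Its fold was 4.19, but its summit held 6 fragments, the fewest of the 30.

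Direct overlap of both proteins at these genes was rare. With DMSO, 2 of the 23 SS18::SSX peaks (8.70%, exact 95% Clopper-Pearson interval 1.07 to 28.0%) shared at least 1 bp with a WDR5 peak, where the share of all SS18::SSX peaks near protein-coding genes was 35.7%. They were the peak 846 bp upstream of *FGF4* and the one 2510 bp upstream of *FGF19*. Within 1 kb of a WDR5 peak were 9 of the 23 (39.1%, 19.7 to 61.5%), where the share of all such peaks was 58.0%. These 9 were at *FGF3*, *FGF4*, *FGF19*, *FGFR2*, and *FGFR3*. Counted from the WDR5 side, 2 of 30 peaks (6.67%, 0.818 to 22.1%) overlapped SS18::SSX, against 13.7% of all WDR5 peaks near genes.

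With MS67, 3 of the 10 genes had an SS18::SSX peak (*FGF3*, *FGF8*, and *FGF19*), and 4.53% of all protein-coding genes did. All 4 peaks were at ligand genes. *FGF19* had 2, a number that 1.08% of all genes reached. No gene of the 10 had an SS18::SSX promoter peak with MS67, and over all genes the share was 0.724%. Of the 23 DMSO peaks, 20 (87.0%, 66.4 to 97.2%) had no overlapping MS67 peak, and over all SS18::SSX peaks near genes the share was 94.4%. No MS67 peak came within 1 kb of 82.6% of the 23 (61.2 to 95.05%), against 90.2% of all such peaks. By role, 10 of the 13 ligand peaks (76.9%, 46.2 to 94.96%) and 10 of the 10 receptor peaks (100%, 69.2 to 100%) were not called again, and these intervals overlap. The intervals treat peaks as independent, although several of the receptor peaks stand in a single group upstream of *FGFR3*, and the difference was not tested. The SS18::SSX library with MS67 had the higher coverage, but its fragments were longer (197 bp against 136 bp). Coverage relative to mean fragment length was slightly lower with MS67 than with DMSO, so the MS67 library did not hold more fragments. When each DMSO summit and its background were multiplied by the coverage ratio of 1.36, all 23 had a −log10 p of at least 5.04, the lowest in the MS67 list, as did 96.8% of all SS18::SSX peaks near genes. The 20 that were not called again were among them. Multiplying by a ratio above 1 raises −log10 p, so such a result was largely set in advance. It does not show that these peaks could have been called in the MS67 library. None of the 23 peaks was among the 1175 DMSO peaks of highest −log10 q.

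The SS18::SSX peak at *FGF8* with MS67 was also in an intron, but at another place. This peak, at chr10:101774335-101774713, had 42 fragments at its summit and a fold of 2.59. It overlapped no DMSO peak, and the nearest was 589 bp away. It was the only one of the 4 without an overlapping DMSO peak, where the share over all SS18::SSX peaks near genes with MS67 was 24.9%.

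With MS67, 3 genes had a WDR5 peak (*FGF9*, *FGFR1*, and *FGFR2*), and 60.1% of all protein-coding genes had one. *FGFR2* held 7 of the 9, a number that 0.374% of all genes reached, and it was the only gene of the 10 with a promoter peak, where the share of all genes was 27.7%. Of the 30 DMSO peaks, 26 (86.7%, 69.3 to 96.2%) had no overlapping MS67 peak, and over all WDR5 peaks near genes the share was 73.1%. No MS67 peak came within 1 kb of 76.7% of the 30 (57.7 to 90.1%), against 57.6% of all such peaks. All 10 ligand peaks (69.2 to 100%) and 16 of the 20 receptor peaks (80.0%, 56.3 to 94.3%) were not called again. The WDR5 library with MS67 was the shallower one. When the DMSO summits and backgrounds were multiplied by 0.458, 13 of the 30 (43.3%) had a −log10 p of at least 4.06, the lowest in the MS67 list, against 45.1% of all WDR5 peaks near genes. Of the 26 that were not called again, 9 would have reached that value and 17 would not. For those 17, a loss of WDR5 could not be told from lower depth by this scaling. Multiplying by a ratio below 1 lowers −log10 p, so weak peaks fell short of that value largely by construction.

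The 9 WDR5 peaks that would have reached it included those at *FGF4* and both at *FGF19*. At *FGFR1* they were the peaks 2 and 3828 bp inside the gene and 1 of the peaks near *LETM2*, and at *FGFR2* the pair beyond the 3′ end and the intron peak 18028 bp inside the gene. At *FGFR2*, a WDR5 peak with MS67 lay 369 bp from the nearer of that pair and 833 bp from the other. At *FGFR1*, a WDR5 peak with MS67 lay 179 bp from the peak 3828 bp inside the gene. The promoter peaks of *FGF3*, *FGF8*, *FGF18*, and *FGFR4* would not have reached it.

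Of the 9 WDR5 peaks with MS67, 5 overlapped no DMSO peak, and over all WDR5 peaks near genes with MS67 the share was 33.9%. One lay in an *FGF9* intron, 22586 bp from the first base, with 5 fragments at its summit. The other 4 lay at *FGFR2*, with 3, 6, 11, and 12 fragments, and the one with 3 fragments (95% interval 0.619 to 8.77) had a −log10 q of 1.52.

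At these genes 7 sites were called in both conditions, 3 of SS18::SSX and 4 of WDR5. To compare them across libraries, the summit fragments were divided by the genome-wide coverage of each library. At the *FGF3* site, the summit held 20 fragments with DMSO and 27 with MS67, which is 37.0 and 36.6 times coverage, a ratio of 0.990. At the *FGF19* upstream site it held 19 and 23 fragments, 35.1 and 31.2 times coverage. At the *FGF19* downstream site it held 9 in both, 16.6 and 12.2 times coverage. Over all 879 pairs of overlapping SS18::SSX peaks the median ratio of MS67 to DMSO was 0.705, with 90% of pairs between 0.440 and 1.19, and the 3 ratios lay inside that range. Coverage also rises with fragment length, which was 136 bp with DMSO and 197 bp with MS67, and the ratios were not corrected for it. A ratio below 1 is therefore not by itself a lower signal per fragment. The counting intervals of DMSO and MS67 overlapped at each of the 3.

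The counting intervals of both conditions overlapped at the 4 WDR5 sites as well. At the *FGFR2* internal promoter the summit held 30 fragments with DMSO and 14 with MS67, which is 81.6 and 83.1 times coverage. At the *FGFR2* intron site it held 20 and 11 fragments (54.4 and 65.3 times coverage), and at the site upstream of *FGFR2* it held 20 and 12 (54.4 and 71.2 times). At the *FGFR1* site it held 23 and 11 fragments (62.6 and 65.3 times). Over all 8897 WDR5 pairs the median ratio was 1.27, and 90% of pairs lay between 0.664 and 2.182. Sites called in both lists are chosen for being called with MS67, so these ratios say nothing of the sites that were not called again.

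**Figure D3:**
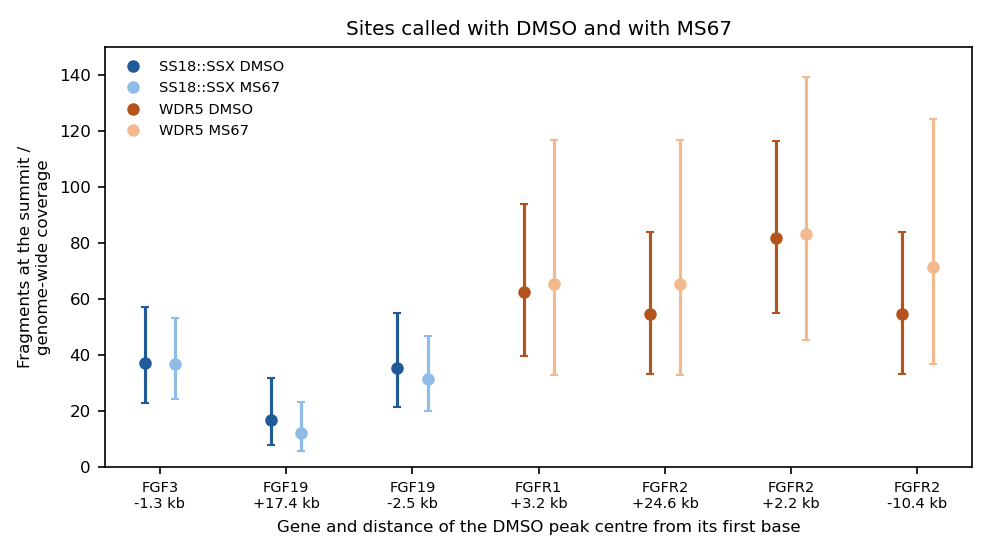
Fragments at the summit divided by the genome-wide coverage of the library (y axis) at the 7 sites called with DMSO (dark) and with MS67 (light), named on the x axis by gene and by distance of the DMSO peak centre from the first base. Error bars are exact 95% Poisson intervals of the fragment count, and within every site the intervals of both conditions overlap.

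The local background itself varied among the genes more than the folds did. It is the fragment level that the peak caller took from the 10 kb around a summit, and it is given here as a multiple of the genome-wide coverage of the same library. The median over the peaks was 7.74 for SS18::SSX with DMSO and 9.82 for WDR5 with DMSO, against 5.72 and 4.91 over the whole lists. *FGF8* stood highest in both, with 21.7 and 23.5 at its SS18::SSX peaks and 26.6 and 24.6 at its WDR5 peaks near the gene start, and it remained at 21.1 for SS18::SSX with MS67. *FGFR3* followed for SS18::SSX, from 10.3 to 15.6, and *FGFR2* for WDR5 at 16.9. With DMSO, levels were low at *FGF18* (2.66 and 2.68 for SS18::SSX), at *FGFR4* (1.83 for WDR5), and downstream of *FGF19* (1.88 and 1.91 for SS18::SSX). With MS67, the lowest were 1.09 at the *FGFR2* peak of WDR5 with 3 fragments, 1.85 downstream of *FGF19* for SS18::SSX, and 2.42 at *FGF9* for WDR5.

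At the sites called in both conditions, the counting intervals of the level overlapped at 5 of the 7. These intervals treat the 2 ends of a fragment as separate counts, which makes them too narrow. Intervals on whole fragments were not computed, so the exceptions are not established as differences. The exceptions were *FGF3*, at 8.99 with DMSO (8.34 to 9.67) and 7.20 with MS67 (6.603 to 7.83) for SS18::SSX, and the site upstream of *FGFR2*, at 11.8 (10.9 to 12.9) and 15.1 (13.5 to 16.8) for WDR5. The SS18::SSX level was 7.74 and 8.19 upstream of *FGF19* and 1.88 and 1.85 downstream of it. The WDR5 level was 11.4 and 11.3 at *FGFR1*, 16.9 and 15.0 at the *FGFR2* internal promoter, and 5.91 and 4.83 in the *FGFR2* intron.

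**Figure D4:**
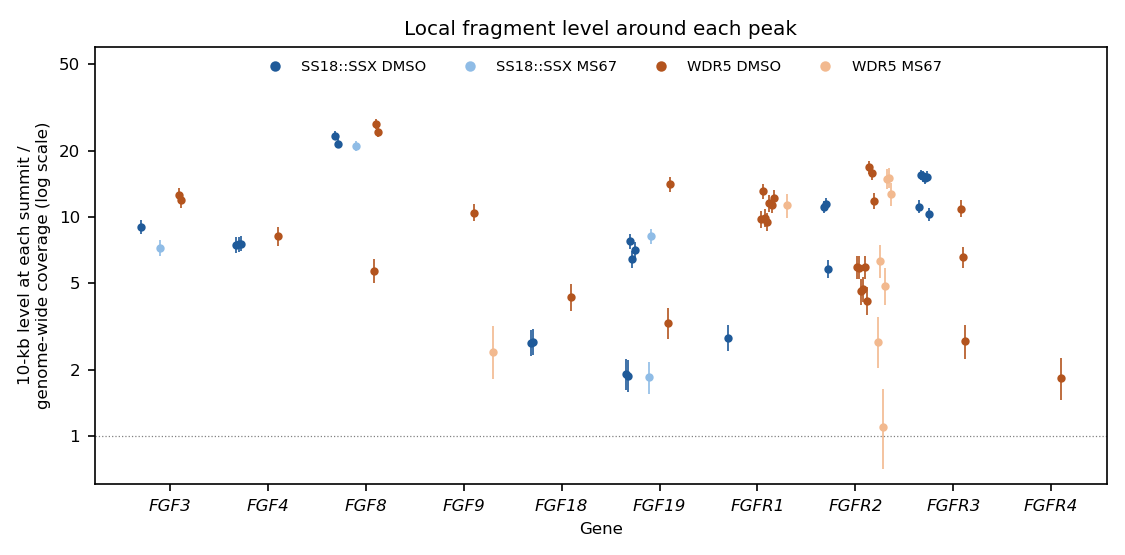
Fragment level in the 10 kb around each peak summit as a multiple of genome-wide coverage (y axis, log scale) for every peak at the 10 genes (x axis), coloured by library, with exact 95% Poisson intervals of the fragment ends counted. Both ends of each fragment are counted as if separate, so the intervals are too narrow. FGF8 has peaks above 20 in 3 of the 4 libraries, and the dotted line at 1 is the genome-wide coverage.

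The peaks at the FGF genes were compared with their lists for base composition over 300 bp around each summit. Median GC content was 61.7% for SS18::SSX with DMSO and 61.3% for WDR5 with DMSO, against 59.7 and 57.3% over all peaks. The ratio of observed to expected CG dinucleotides was 0.295 and 0.357, against 0.351 and 0.410. This ratio varied widely by site, from 0.0456 at an *FGF8* intron peak and 0.142 at the *FGF3* upstream peak to 0.936 at the *FGF4* promoter, all for SS18::SSX with DMSO. The motifs searched, on both strands, were CCAAT (the NF-Y box), GGGCGG (the GC box), and CACGTG (the E-box of MYC and USF). CCAAT occurred in 7 of the 23 SS18::SSX peaks, GGGCGG in 5, and CACGTG in none, against 26.5, 27.8, and 6.88% of all peaks in the list. In the 30 WDR5 peaks they occurred in 8, 6, and 3, against 25.4, 30.8, and 6.10%.

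The promoters of the 10 genes, taken as 250 bp before to 50 bp after the first base of the gene, had a median GC content of 73.5%, against 60.3% over 20033 protein-coding promoters. *FGFR3* was highest at 86.3%, and *FGFR1* was lowest at 55.0%. GGGCGG occurred in 8 of the 10, all except *FGF8* and *FGFR1*, and in 52.4% of all promoters. CCAAT occurred at *FGF3*, *FGF4*, *FGF9*, and *FGFR2* and in 35.9% of all promoters, and CACGTG in none of the 10 and in 8.36% of all. These are letters in a window and not measured binding sites.

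The rest of the pathway was described from a list of 36 genes, which are 16 other ligands, 6 coreceptors and binding proteins, 11 adaptors and feedback inhibitors, and 3 ETS transcription factors that are targets of the pathway. SS18::SSX with DMSO had a peak at 12 of the 36, where 37.1% of all genes had one, and a promoter peak at 8, where 13.4% had one. The 8 were *FGF5*, *FGF20*, and *FGF22* among the ligands, *FGFRL1* and *KL* among the coreceptors, *SPRED3* and *DUSP6* among the feedback inhibitors, and *ETV4*. By −log10 q the highest were *FGF20* at 7.27 with a fold of 5.55, *SPRED3* at 6.78 with a fold of 5.85, and *FGFRL1*, which encodes a receptor without a kinase domain, at 5.31 with a fold of 3.42. *FGFRL1* had 12 SS18::SSX peaks with DMSO and 2 with MS67. *DUSP6*, a phosphatase of ERK and a common readout of FGF signalling, had a promoter peak with a fold of 5.14 and 13 fragments.

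No gene of the 36 had an SS18::SSX promoter peak with MS67, and 31 of their 32 peaks (96.9%, 83.8 to 99.9%) were not called again, against 94.4% of all SS18::SSX peaks near genes. WDR5 with DMSO had a promoter peak at 20 of the 36, where 43.0% of all genes had one, and with MS67 at 5, where 27.7% had one. By −log10 q the highest with DMSO were those of *ETV1* at 13.95, *FGF5* at 10.6, and *SPRY4* at 10.1. Of 95 WDR5 peaks, 73 (76.8%, 67.1 to 84.9%) were not called again, against 73.1% of all WDR5 peaks near genes. At these genes 13 of the 32 SS18::SSX peaks (40.6%, 23.7 to 59.4%) overlapped a WDR5 peak, where the share over all genes was 35.7%. At the 10 genes the count was 2 of 23, and the difference was not tested.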

How the data were processed

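The authors aligned reads with Bowtie2 to hg38 and, for the spike-in, to mm10. They removed non-primary alignments with SAMtools and duplicates with Picard, and called peaks with MACS2, with a peak list for each library. The command options of MACS2 and any control library are not given in the sources used here. The recovered backgrounds fit a run without a control library, which is an inference and not a stated fact. For comparing peak sets the study used stricter cuts on q and fold, which the deposited lists do not carry, and these cuts are the stricter peaks among the alternatives. The authors deposited for each peak its position, its fold enrichment (a ratio to local background), its −log10 p and −log10 q, and a score, which was not used.

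MACS2 adds 1 to the summit pileup and to the background before it divides them into the fold, and takes p from the Poisson tail of both. Solving both gave whole pileups for 100% of peaks within 0.001 in −log10 p, and the step was tested on simulated data. Read totals were not in the lists, and intervals cover counting error only. PCR duplicates that were not removed would make them too narrow. The intervals of the local level are also too narrow because both ends of each fragment were counted. Sites of different lists were matched when they shared at least 1 bp. Scaling a DMSO summit means multiplying its pileup and background by the coverage ratio. The unit of comparison was the library, grouped by antibody and treatment, and with 1 library per group no test was run.

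All 10 genes were named. A neighbouring gene was named where it held the nearest TSS of a described peak. Of the 36 other pathway genes, those with an SS18::SSX promoter peak and the 3 with the highest WDR5 promoter peak were named. The members, lists, and alternatives were chosen with earlier results of these data known. Alternatives were other windows, stricter peaks, merged peaks, other overlaps and promoters, and DMSO lists reduced to the length of the MS67 list. Computation ran under Python 3.11.15 (pandas 2.3.3, numpy 2.4.6, scipy 1.17.1), and figures were drawn with matplotlib 3.10.9.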

Additional observations from a re-analysis of the deposited data

How the results depend on the processing

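Peak counts at the 10 genes depended on the window, the strictness of the peaks, and the length of the list. In the gene bodies alone there were 7 SS18::SSX peaks with DMSO and 1 with MS67, and 10 and 4 of WDR5, and with 50 kb on each side there were 51 and 14 of WDR5. With stricter peaks (−log10 q above 3, with a fold above 3 for the fusion and above 6 for WDR5), 10 and 2 SS18::SSX peaks and 1 and 1 WDR5 peaks were left. Reducing the DMSO list to the length of the MS67 list left 0 SS18::SSX peaks, so no loss could be computed, and 8 WDR5 peaks, of which 62.5% were not called again. The share of SS18::SSX peaks not called again was 100% in the gene bodies, and that of WDR5 was 0% for the single stricter peak. SS18::SSX overlap with WDR5 was 0% in the gene bodies and with stricter peaks, and 39.1% within 1 kb. With promoters of 2 kb on either side of a TSS, 6 genes had an SS18::SSX promoter peak with DMSO and 2 with MS67, and 2 had a WDR5 promoter peak with MS67. Counting any overlap with the promoter gave 1 gene for SS18::SSX with MS67. Stricter peaks left 0 WDR5 promoter genes in both conditions, and the first base of the gene record alone left 0 for WDR5 with MS67. Of the other comparisons over the 10 genes, 28 moved by no more than the allowance of 1.5 times for a count or the counting interval for a share. For single genes, 69 counts moved by more and 111 did not. SS18::SSX peaks at *FGFR3* with DMSO numbered 15 with 50 kb on each side and 3 when merged within 1 kb. They numbered 2 with stricter peaks and 0 in the gene body. At *FGF19* the same settings gave 5, 5, 3, and 0. No paired analysis was possible because each condition is 1 library. Depth limits the WDR5 comparison. By coverage scaling alone, 17 of the 26 peaks not called again would not reach the lowest −log10 p of the MS67 list.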
